A study of Mus musculus with 12 samples.

Results

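The nuclear genes for subunits of the mitochondrial respiratory chain and ATP synthase were followed in mouse embryonic fibroblasts after DNA damage. Members were all gene entries whose symbol starts with Nduf, Uqcr, Atp5 or Cox4 to Cox8, or is Sdha, Sdhb, Sdhc or Sdhd, without pseudogene symbols. This rule, which uses names and no measured value, gave 88 of 16425 gene entries. They were grouped by protein complex: 36 in complex I, 4 in complex II, 8 in complex III, 16 in complex IV and 15 in complex V, with 9 assembly factors that carry a complex I or ATP synthase name. Ndufa4, named for complex I, was placed with its paralogue Ndufa4l2 in complex IV, where its protein is now known to sit. Symbols are those of the deposited table, which prints them in capitals, written here in mouse style; some are older names, such as Atp5g1 for the gene now called Atp5mc1.

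Complex I (NADH dehydrogenase) and complex II (succinate dehydrogenase) pass electrons to ubiquinone, complex III passes them on to cytochrome c, and complex IV (cytochrome c oxidase) gives them to oxygen. Complexes I, III and IV pump protons across the inner mitochondrial membrane, and complex V (ATP synthase) uses their return to make ATP. Most subunits are encoded in the nucleus and imported, and a small core of complexes I, III, IV and V is encoded in mitochondrial DNA. The transcription factors NRF1, GABP (an ETS factor) and YY1 are known to act on many of the nuclear genes, and Myc can bind the E-box sequence in promoters of mitochondrial genes.

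The study compared wild-type mouse embryonic fibroblasts (MEFs) that had been infected with an sgRNA against the p53 response element (p53RE) of PVT1, called sg10, with MEFs infected with a nontargeting control sgRNA, sgtom. PVT1 is a long noncoding RNA gene beside Myc, and a p53 response element is a stretch of DNA to which p53 binds. The 6 libraries used here all came from cells held for 24 h in 0.5 µM doxorubicin, a drug that damages DNA, with 3 biological replicates for each guide. The 6 untreated samples of the series were not analysed here, so every difference below is between guides or between replicate numbers among treated cells, and none is an effect of doxorubicin. Whether the infected cells were pools or clones is not given in the labels. The libraries measure bulk RNA, in which fewer cells of a type and less RNA per cell cannot be told apart.

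Libraries held 50091418 to 66132317 reads in genes. Values are in CPM, reads scaled to library depth by the authors. Between control and response element libraries, Pvt1 averaged 13.4 ± 2.61 and 6.46 ± 1.395 CPM, and Myc 30.4 ± 4.55 and 48.6 ± 5.16 CPM (SD, n = 3 each). Libraries with the same replicate number were alike: replicate number held 86.3% of the variance of the members' log2 values, the guide 5.55% and the rest 8.19%. Over all genes these shares were 86.9%, 4.59% and 8.5%. All 10 fibroblast markers were listed, with sums of 15840 to 18230 CPM. Of 14 macrophage marker symbols 13 were listed, with sums of 246 and 388 CPM in the replicate 1 libraries and 110 to 138 CPM in the other 4. The summed markers of muscle, endothelium and epithelium stayed between 38.9 and 99.99 CPM in each library, and those of neural cells between 199 and 258 CPM. The 6 erythroid markers were not used here, as no entry matched them.

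The members differed widely in level among themselves. Together they held between 7594 and 8378 CPM per library, or 0.759% to 0.838% of reads on this scale. Levels between genes were compared per kilobase of the principal transcript in GENCODE M21, as the mean over the 6 libraries. Median levels were 136 CPM per kb for complex III, 129 for complex V, 127 for complex IV, 62.4 for complex II, 54.6 for complex I and 4.71 for the assembly factors. The medians of complexes III, IV and V overlapped across the 6 libraries (124 to 144, 122 to 134 and 119 to 138 CPM per kb). Complex II (59.4 to 63.4) lay above complex I (51.6 to 57.1) in its library range, and both lay below the other 3.

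Members of one complex spanned a wide range. Cox4i1, the common form of a nuclear subunit of complex IV, was the highest member at 571 CPM per kb. Atp5b, the catalytic beta subunit of ATP synthase, followed at 513 CPM per kb. Uqcrh, the hinge protein of complex III, led its complex at 254 CPM per kb, and Uqcrfs1, the Rieske iron-sulfur protein of the same complex, was lowest there at 44.6. In complex I the accessory subunit Ndufa7 was highest at 188 CPM per kb and Ndufc1 lowest at 17.97. The 4 genes of complex II ran from Sdhc, a membrane anchor, at 33.4 to Sdhb, its iron-sulfur subunit, at 68.5 CPM per kb. Among assembly factors Ndufaf2 was highest at 13.8 and Ndufaf6 lowest at 2.53 CPM per kb. For 6 members the principal transcripts differ in length by more than 1.5 times, and the shortest well-supported one was used. With the longest, Atp5g1 would stand at 15.7 and not 124 CPM per kb, and Ndufb2 at 7.92 and not 76.1. The medians of complexes I, III and V would then be 50.8, 102 and 115 CPM per kb, which puts complex III below complexes IV and V, and the other 3 medians would stay as given.

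**Figure D1:**
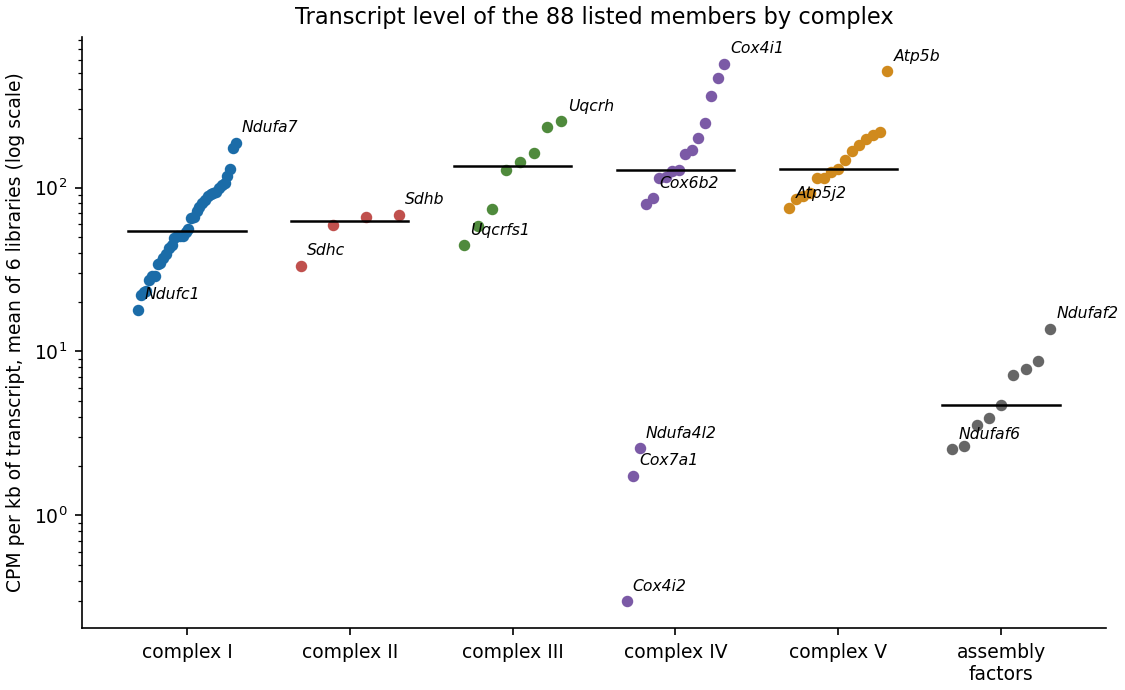
Level of each of the 88 members in CPM per kilobase of principal transcript (log axis, mean of 6 libraries) by complex, with black bars for medians. Complexes III, IV and V have medians of 136, 127 and 129, the 9 assembly factors a median of 4.71, and 3 complex IV isoforms lie below 3.

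Subunits with tissue forms were present mainly as the common form. Cox4i2, the form known from lung and low oxygen, had 8 to 17 reads per library (0.121 to 0.273 CPM) and made up 0.0299% to 0.0615% of the 2 Cox4i genes per kb; it was the only member that did not reach 0.5 CPM in 3 libraries, so 87 members were tested. Cox7a1, the heart and muscle form, made up 0.775% to 2.45% of Cox7a1 plus Cox7a2, and Ndufa4l2, a form known to be induced by low oxygen, 0.983% to 2.39% of Ndufa4 plus Ndufa4l2. An exception was Cox6b2, known as the testis form of a complex IV subunit. It made up 37.0%, 17.5% and 21.3% of Cox6b1 plus Cox6b2 in the control libraries (replicates 1 to 3) and 33.7%, 20.8% and 21% in the others. The largest Cox6b2 shares were thus those of replicate 1 under either guide. Its shares also depend on the transcript length used. With the longest principal transcripts they were 31.8%, 14.4% and 17.7% in the control libraries and 28.8%, 17.3% and 17.5% in the others.

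Atp5g1, Atp5g2 and Atp5g3 encode the same mature c subunit, which forms the rotor ring of ATP synthase. Atp5g3 gave 42.9% ± 0.582 of their summed level per kb with the control guide and 41.6% ± 0.416 with the response element guide, Atp5g2 31.3% ± 0.788 and 31.3% ± 0.756, and Atp5g1 25.8% ± 0.413 and 27.1% ± 0.626 (SD, n = 3 each). The Atp5g1 share was 25.4%, 25.8% and 26.2% in the control libraries and 27.7%, 26.5% and 27.0% in the others, so the groups did not overlap. These shares depend on the transcript lengths used. With the longest principal transcripts, a choice tried after seeing the data, Atp5g1 gave 5.05% ± 0.0936 and 5.4% ± 0.151 in the guide groups, and Atp5g3 65.6% ± 0.738 and 64.8% ± 0.574 (SD, n = 3 each). The groups still did not overlap for Atp5g1, but they did for Atp5g3.

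Promoters are shown for the members with an E-box, because Myc stood higher with the response element guide, and for Ndufaf4 and Atp5k, which recur in the comparison of guides. RefSeq promoters (GRCm38.p6, 250 bases before to 50 after the start of the gene) were matched for 74 of the 88 members. Each line gives 30 bases, 5′ to 3′ on the gene's strand, with the motif in capitals (E-box CACGTG, or NRF1 core GCGCATGC).
Atp5g1, chr11:96075658-96075687, minus strand: agggactccgaaCACGTGggtgggggagct
Atp5g3, chr2:73911547-73911576, minus strand: acccctgcctggCACGTGcaaggagcgagg
Atp5f1, chr3:105959484-105959513, minus strand: aCACGTGgtgtacctctgcgcaaccgcccc
Atp5l, chr9:44920872-44920901, minus strand: ctcaggattcttCACGTGttatcgcgcctc
Ndufa7, chr17:33824488-33824517, plus strand: gcggagaggagtCACGTGagcaggggatgc
Ndufv1, chr19:4012907-4012936, minus strand: agcagagggcgaCACGTGagcctggtttac
Atp5sl, chr7:25619380-25619409, plus strand: tggtgtctgaacCACGTGttaggagggaac
Ndufaf4, chr4:24897959-24897988, plus strand: cccagatgtctGCGCATGCgcctgtgcgga
Atp5k, chr5:108434431-108434460, minus strand: ctttcactgcgGCGCATGCgcctttctggc

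Searched on both strands, the E-box stood in 7 of 74 member promoters (9.46%) and in 11.5% of the 10939 promoters of tested genes. Within complexes, 4 of 14 promoters of complex V held it, 2 of 32 of complex I, 1 of 8 of the assembly factors and 0 of complexes II, III and IV. In Atp5g1 the E-box lies 44 to 39 bases before the start, and in Atp5f1 249 to 244 bases before it. The NRF1 core was found in 12 of 74 member promoters (16.2%) and 5.65% of all, and its palindromic middle lets it overlap its own reverse match, as in Ndufaf4 and Atp5k. The ETS core CCGGAAG stood in 17 member promoters (23% against 18.8% of all). The YY1 core AAGATGGC stood in 11 (14.9% against 5%), of which 7 belong to complex I, 3 to complex V, 1 to an assembly factor and none to complexes II, III and IV. No motif contains another, but the ETS core ends in the letters AAG with which the YY1 core starts, so they can overlap. A match is a string of letters and not a bound site.

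After doxorubicin no member passed the test between guides, and the median of each complex lay near 0. With limma on log2(CPM + 0.5) over 14440 genes, 0 of 87 tested members passed an adjusted p of 0.05, where 0% of all tested genes did. At an unadjusted p under 0.05 there were 0 members as well, and 50 of all genes (0.346%). With replicate number as a block in limma, 0 members passed and 5 genes did (0.0346%), Pvt1 and Myc among these. The lowest adjusted p of a member was 1.0 without the block and 0.672 with it. By limma, 46 members stood higher and 41 lower with the response element guide, and the members' median log2 fold change was 0.0015, beside −0.0004 over all genes. The authors' deposited table lists 0 members under a false discovery rate of 0.05, with 0.39 as its lowest member p.

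Intervals were narrow for most members. For 63 of 87 members the 95% interval of the log2 fold change lay within ±0.25, a fold of 1.19 in either direction, and in the blocked fit this held for 81. All estimates lay between −0.13 (Ndufaf2) and 0.17 (Ndufaf4). The widest intervals belonged to Ndufa4l2 (−0.78 to 1.04), Cox6b2 (−0.92 to 0.99) and Cox7a1 (−0.77 to 0.55), the only members whose replicate numbers differed by more than 1.5 times. In the plot of guide differences the intervals of all members drawn cross 0.

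**Figure D2:**
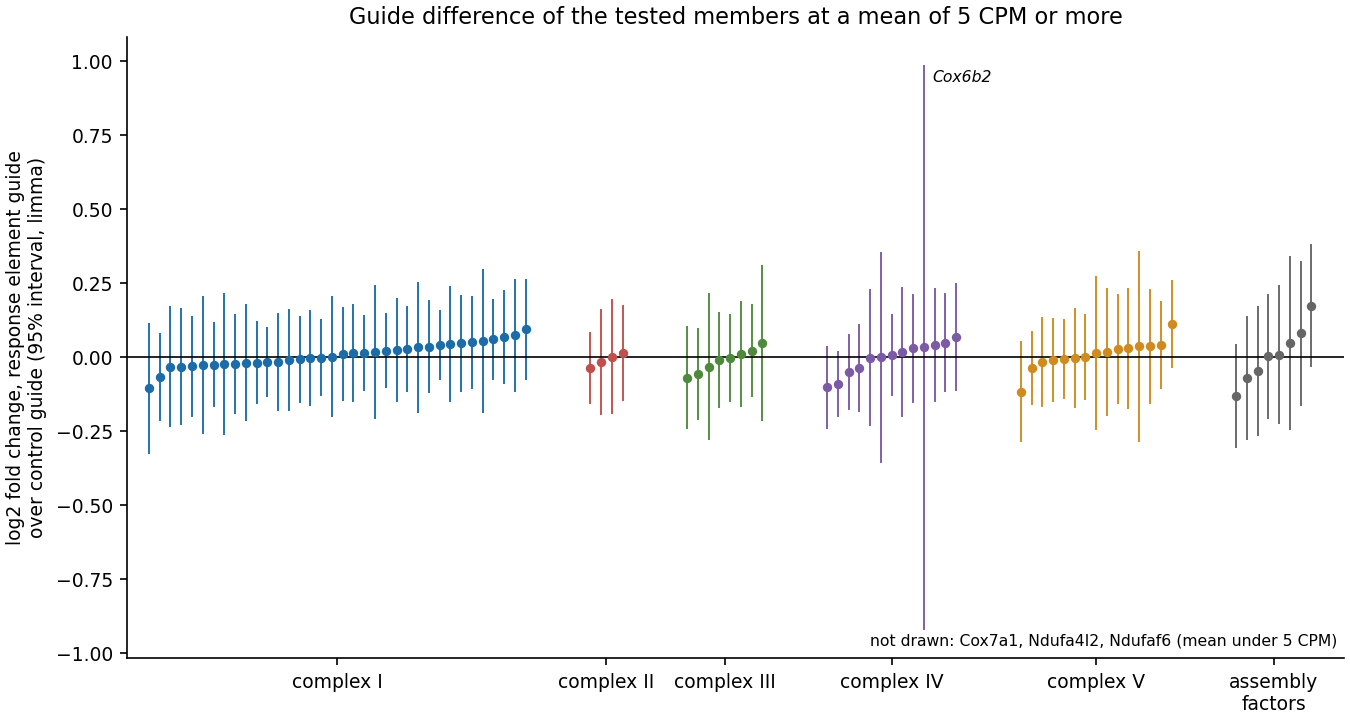
Log2 fold change of the response element guide over the control guide with its 95% interval from limma, for the 84 tested members with a mean of at least 5 CPM, sorted within each complex. All points lie between −0.13 and 0.17 and each interval crosses 0; the long interval in complex IV is Cox6b2.

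By complex, the median log2 fold changes were 0.0058 for complex I (19 members higher, 17 lower), −0.0082 for complex II (2 and 2), −0.0068 for complex III (3 and 5), 0.0070 for complex IV (8 and 7), 0.014 for complex V (9 and 6) and 0.0029 for the assembly factors (5 and 4). The 3 pairs of libraries with equal numbers gave medians of 0.021, 0.015 and 0.027 for complex V. They gave −0.0045, 0.016 and 0.024 for complex I, so its direction was not shared by all pairs. Summed over its genes, complex V averaged 2739 ± 213 CPM in control libraries and 2782 ± 207 CPM in response element libraries (SD, n = 3 each). The sums of complex I were 2095 ± 59.9 and 2112 ± 56.9 CPM, those of complex IV 1846 ± 70.6 and 1854 ± 82.1 CPM, and these differences are smaller than the SD of either group.

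In complex I, the 7 core subunits measured here carry the flavin and iron-sulfur centres. Their log2 fold changes ran from −0.017 for Ndufv1, which holds the flavin, to 0.060 for Ndufs7, next to the quinone site, with a median of 0.035. The 29 accessory subunits had a median of −0.0030. The smallest p in the complex was that of Ndufc2, an accessory subunit of the membrane arm, at 64.0, 68.3 and 65.5 CPM in the control libraries and 74.5, 72.3 and 64.6 CPM in the others (limma log2 fold change 0.09, SE 0.070, adjusted p = 1.0). Its groups overlap through replicate 3, where the control library was the higher one. Ndufa1, an accessory subunit encoded on the X chromosome, stood at 44.9, 39.0 and 36.4 CPM and at 39.4, 35.1 and 36.9 CPM, again with opposite directions among the pairs (log2 fold change −0.11).

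Complexes II and III varied little between guides. Sdhd, a membrane anchor of succinate dehydrogenase, was lower in 3 of 3 pairs, at 83.9, 81.5 and 80.5 CPM with the control guide and 81.7, 80.6 and 77.6 CPM with the other. Sdha, the flavoprotein of the same complex, had a log2 fold change of 0.0015 with an interval from −0.19 to 0.19. Uqcr10, a small subunit of complex III, stood at 68.1, 78.1 and 71.0 CPM and at 67.0, 72.9 and 66.9 CPM, lower in each pair with overlapping groups (log2 fold change −0.07). Uqcrh was also lower in each pair (134.6, 149.6 and 140.3 against 129.6, 138.8 and 139.4 CPM).

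Of the 87 members, 4 had guide groups that did not overlap (4.6%), where 3.61% of all tested genes did. Cox7c, a small subunit of complex IV on chromosome 13 (86044816 to 86046904, mm10), stood at 89.4, 88.6 and 88.2 CPM with the control guide. With the response element guide it stood at 84.5, 83.1 and 82.2 CPM, 0.938 times the control mean. Replicates of Cox7c lay close together, and both limma fits left it above the threshold (log2 fold change −0.09, SE 0.047, adjusted p = 1.0, and 0.684 with the block). A transcribed pseudogene, Gm10012, is nearly identical to Cox7c and was listed at a mean of 0.334 CPM.

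Atp5g1, one of the c-subunit genes (chromosome 11, 96068852 to 96075670), stood at 66.1, 73.1 and 73.9 CPM with the control guide. It stood at 76.2, 75.7 and 78.4 CPM with the response element guide. The groups did not overlap, and the lowest control value is that of replicate 1. A processed pseudogene nearly identical to Atp5g1, Gm10039, was listed at a mean of 1.31 CPM. Its log2 fold change was 0.11 (limma, SE 0.062, adjusted p = 1.0, and 0.678 with the block), the highest in complex V. The other 6 members with an E-box printed above had log2 fold changes of 0.07 (Ndufa7), 0.02 (Atp5f1), 0.01 (Atp5l), 0.0003 (Atp5g3), −0.02 (Ndufv1) and −0.05 (Atp5sl). The median of the 7 was 0.014, beside 0.0034 over all 1262 tested genes with an E-box promoter.

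The assembly factors held the other pair. Ndufaf4, which helps to join the arms of complex I (chromosome 4, 24898083 to 24905001), stood at 9.31, 8.34 and 9.45 CPM in control libraries and 10.7, 9.89 and 10.2 CPM in response element libraries. It was higher in 3 of 3 pairs, 1.13 times the control mean (limma log2 fold change 0.17, SE 0.086, adjusted p = 1.0, and 0.706 with the block). Ndufaf2, which binds a late intermediate of complex I (chromosome 13, 108002715 to 108158623), stood at 9.66, 9.996 and 9.66 CPM and at 8.92, 8.83 and 8.87 CPM, lower in each pair. Ndufaf2 shares 1955 exon bases with a gene on the opposite strand, and the strand setting of the counting is not given in the sources used here. Groups that do not overlap always give p = 0.1 in a two-sided exact permutation test, the smallest that 3 against 3 libraries allow. That test therefore adds nothing for these 4 members, which were picked for this separation. The plot of these members by replicate number shows how narrow the gaps were.

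**Figure D3:**
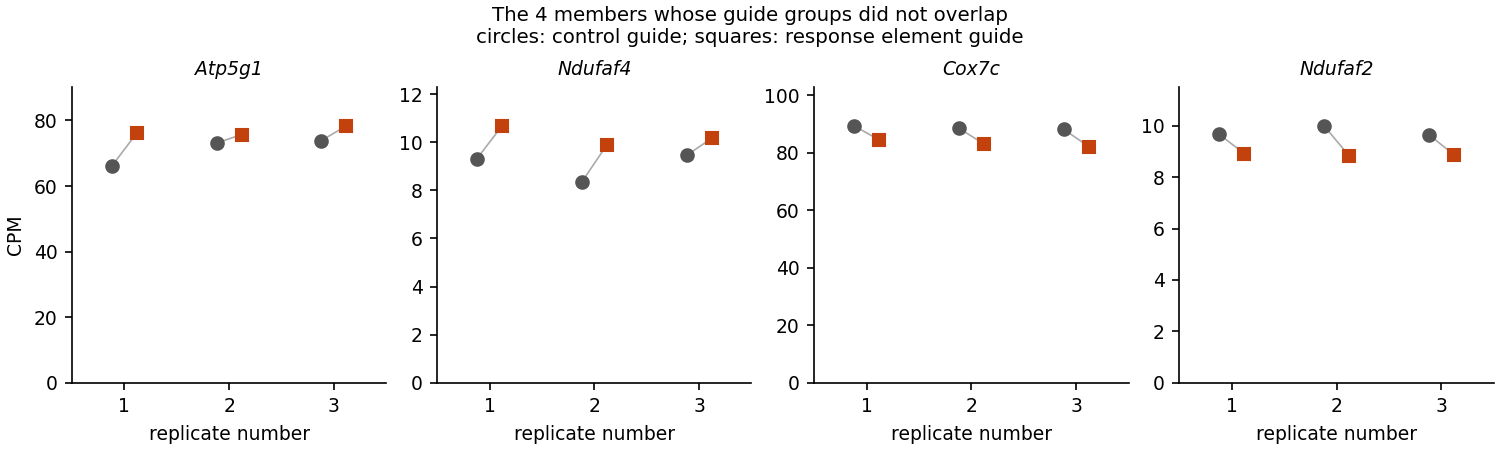
CPM of Atp5g1, Ndufaf4, Cox7c and Ndufaf2 in each library by replicate number, with lines joining libraries of equal number (axes start at 0). Each response element library lies above (Atp5g1, Ndufaf4) or below (Cox7c, Ndufaf2) all 3 control libraries, by at most 1.13 times in the means.

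With the block, 6 members (6.90%) had an unadjusted limma p under 0.05, where 6.68% of all tested genes did, so their share is near that of the table. They were Atp5g1 and Ndufaf4 on the higher side and Cox7c, Cox6c, Atp5k and Ndufa1 on the lower. Cox6c, a small complex IV subunit, stood at 103.3, 107.3 and 103.9 CPM against 96.3, 103.3 and 93.5 CPM. Atp5k, subunit e of ATP synthase, which takes part in its dimers, stood at 43.0, 47.0 and 43.3 CPM against 41.1, 43.5 and 38.3 CPM. Both were lower in each pair with overlapping groups, and their blocked adjusted p was 0.672 and 0.678.

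Genes of the same pathway outside the naming rule gave no call either. Of 95 symbols in 5 lists 76 were tested, and 0 passed limma with or without the block. Cyc1, the cytochrome c1 subunit of complex III, stood at 84.4 ± 5.71 and 89.6 ± 6.75 CPM, and Cycs, cytochrome c, at 103.9 ± 13.4 and 100.7 ± 9.06 CPM (SD, n = 3 each). Among 37 assembly factors 25 stood higher and 12 lower (median log2 fold change 0.012), with the smallest p for Cox10, a heme synthesis enzyme (12.5, 13.8 and 13.8 against 14.4, 14.5 and 16.3 CPM), and Oxa1l, which inserts proteins into the inner membrane (log2 fold change 0.11). Of 21 regulators tested, 12 stood higher (median 0.018). Pprc1, a coactivator of respiratory genes, stood at 71.4, 77.3 and 78.6 against 78.5, 83.4 and 87.8 CPM, higher in each pair, and Gabpa, the DNA-binding subunit of GABP, at 62.3 ± 2.86 against 59.8 ± 1.52 CPM. Pprc1 did not pass either fit (limma adjusted p = 1.0, and 0.570 with the block), and it passed only in the blocked fit without the replicate 2 libraries (adjusted p = 0.0468). Of the 13 genes of the tricarboxylic acid cycle 9 stood higher (median 0.029), with the smallest p for Dld and Sucla2, both lower in each pair by log2 fold changes of −0.04 and −0.04. The ATP synthase factors Atpif1, its inhibitor, and Usmg5 had log2 fold changes of 0.04 and −0.02.

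Replicate number separated the members more than the guide did. By a moderated F test in limma with the guide as a covariate, 39 of 87 members (44.8%) differed between replicate numbers, near the 48.6% of all tested genes. The direction was less even. Both replicate 1 libraries lay below the other 4 in 25 of the 39, which is 28.7% of tested members beside 18.9% of all genes. They lay above the other 4 in 4 (Cox6b2, Ndufa13, Ndufa1 and Ndufa5), which is 4.6% beside 18.1%. Counting called or not, 65 of 87 members (74.7%) stood lower in replicate 1 than in the mean of replicates 2 and 3. Over all tested genes 49.3% did. The members' median log2 difference was −0.077 (0.0036 over all genes). Within each guide the median was −0.069 for the control libraries and −0.067 for the others.

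These counts depend on the fit and on the libraries. Without the variance trend limma called 7 members (8.05%) and 30% of all genes. Without sgPvt1_dox replicate 3 it called 22 members (25.3%) and 36.2% of all genes. Without sgTom_dox replicate 3 it called 25 members (28.7%) and 37.9% of all genes. With replicates 2 and 3 only, chosen after seeing the macrophage markers in replicate 1, it called 13 members (14.9%) and 21.2% of all genes. The macrophage markers moved with the same libraries: 11 of the 13 tested were called between replicate numbers, all 11 above the other 4 libraries in replicate 1, with Adgre1 at 13.4 and 22.0 CPM there and 3.89 to 5.07 CPM elsewhere. Other marker lists differed between replicate numbers too, in mixed directions. Of 10 fibroblast markers 7 were called, 3 of them lowest and 2 highest in replicate 1. Lum stood there at 3.515 times the other replicates and Thy1 at 0.516 times. Calls numbered 3 of 3 tested muscle, 2 of 2 endothelial, 1 of 2 epithelial and 3 of 4 neural markers. All these marker calls are from the main fit with 6 libraries, in which 48.6% of all tested genes were called. In that fit 18.1% of all tested genes were called and highest in replicate 1, and 18.9% called and lowest. The part of any of these markers in the members' difference was not tested.

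Subunit genes of complexes II to V stood lowest in replicate 1 by their medians, which were not tested against one another. The median log2 difference of replicate 1 from the other 2 was −0.13 for complex II, −0.12 for complex III, −0.090 for complex IV and −0.093 for complex V, against −0.056 for complex I and −0.0072 for the assembly factors. Calls between replicate numbers numbered 3 of 4 in complex II, 5 of 8 in complex III, 9 of 15 in complex IV, 7 of 15 in complex V, 14 of 36 in complex I and 1 of 9 among the assembly factors. In the same order these are 75%, 62.5%, 60%, 46.7%, 38.9% and 11.1%, beside 48.6% of all tested genes. Replicate 2 was the high one for most: its median log2 difference from the others was 0.086 over all members, and only 14 of 87 stood below. Over all tested genes that median was 0.0012, and 7162 of 14440 stood below. The tricarboxylic acid cycle genes went the same way, with 8 of 13 called and all 8 lowest in replicate 1 (median −0.18). Of the 37 outside assembly factors 8 were called, 3 of them lowest and 3 highest in replicate 1. Over all tested genes 18.9% were called and lowest in replicate 1, and 18.1% were called and highest there. The plot of replicate 1 by complex sets the subunits beside the assembly factors.

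**Figure D4:**
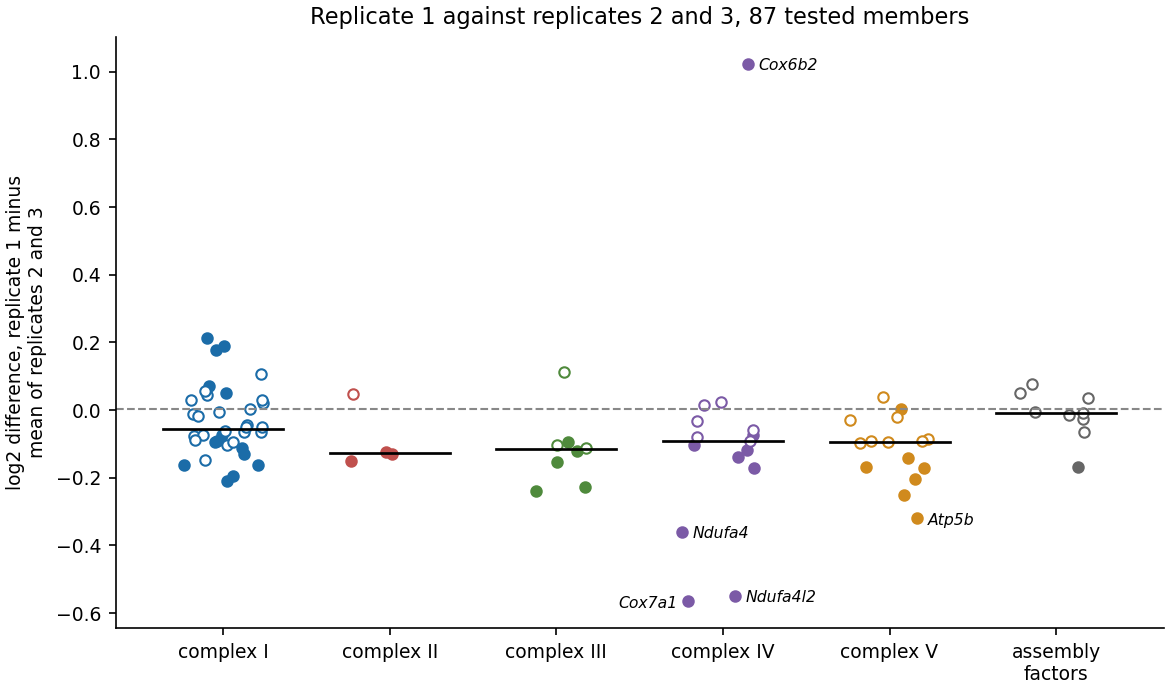
Log2 difference of replicate 1 from the mean of replicates 2 and 3 (guides averaged) for 87 tested members by complex; filled points differed between replicate numbers in limma, bars are medians and the dashed line is the median of all genes (0.0036). Most points of complexes II to V lie below the line (medians −0.13 to −0.090), and Cox6b2 stands alone at the top.

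Most of the catalytic subunits followed this pattern. Atp5b (chromosome 10, 128083273 to 128090391) stood at 831, 1044 and 1035 CPM in control replicates 1 to 3 and at 854, 1046 and 1084 CPM with the response element guide. Both replicate 1 values lay below the other 4, at 0.801 times the mean of the others (limma adjusted p = 5.1e-05). Atp5a1, the alpha subunit beside it in the catalytic head, was at 0.907 times. Atp5c1, the central rotor shaft, at 0.939 times, did not pass (adjusted p = 0.073).

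Among proton pumps, Ndufs8, an iron-sulfur core subunit of complex I, stood at 32.7, 39.4 and 36.4 CPM and at 33.8, 38.7 and 38.3 CPM. Uqcrc1, a core protein of complex III, stood at 184.5, 234.9 and 209.5 CPM and at 195.6, 229.6 and 222.8 CPM. For both genes replicate 1 was lowest and replicate 2 highest under either guide (limma adjusted p = 0.0091 and 5.6e-04). Uqcrc2, the partner of Uqcrc1, was at 0.852 times in replicate 1, Uqcrfs1 at 0.898 times, and Sdha, Sdhb and Sdhc at 0.9002, 0.914 and 0.917 times. Sdhd went the other way, at 1.034 times in replicate 1, and did not pass (limma adjusted p = 0.39). Ndufs3, Ndufs7, Ndufv1 and Ndufv2, also core subunits of complex I, did not pass between replicate numbers. Of these, Ndufs3 and Ndufs7 stood higher in replicate 1, at 1.041 and 1.02 times, and Ndufv1 and Ndufv2 lower, at 0.967 and 0.937 times.

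Complex IV held the largest differences. Ndufa4 (chromosome 6, 11900292 to 11907497) stood at 83.2, 115.8 and 114.8 CPM and at 92.1, 109.8 and 109.3 CPM, lowest in replicate 1 at 0.779 times the others (limma adjusted p = 4.9e-04). Its paralogue Ndufa4l2 had another order, 1.51, 3.48 and 1.75 CPM and 1.75, 4.12 and 1.77 CPM. Replicate 2 of Ndufa4l2 was at 2.24 times the mean of the others under both guides together (limma adjusted p = 8.9e-05). Cox6b2 (chromosome 7, 4751792 to 4753094) went the opposite way, at 64.6, 25.5 and 31.4 CPM and at 57.4, 31.0 and 31.2 CPM. Its replicate 1 libraries stood at 2.05 times the others (limma adjusted p = 2.4e-04), while the common form Cox6b1 was at 0.946 times and did not pass (adjusted p = 0.15). Cox7a1 was low throughout, at 0.346, 1.19 and 0.710 CPM and at 0.438, 0.770 and 0.660 CPM. The plot of members by replicate number sets these orders side by side.

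**Figure D5:**
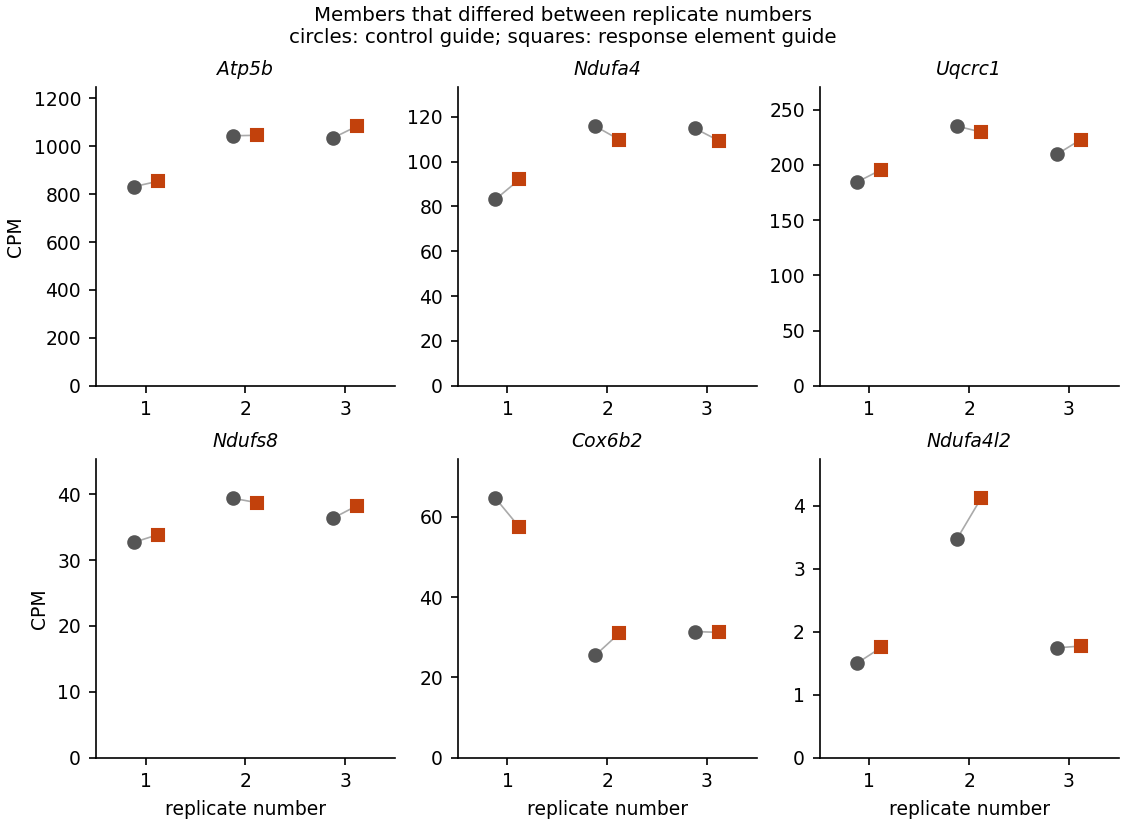
CPM of Atp5b, Ndufa4, Uqcrc1, Ndufs8, Cox6b2 and Ndufa4l2 by replicate number, control guide as circles and response element guide as squares (axes start at 0). The first 4 are lowest in replicate 1, Cox6b2 is highest there (64.6 and 57.4 CPM) and Ndufa4l2 is highest in replicate 2 (3.48 and 4.12 CPM), with both guides alike.

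The mitochondrially encoded gene mt-Co1, the catalytic subunit of complex IV, stood at 5226, 5520 and 5264 CPM and at 5011, 6048 and 5232 CPM. It too was lowest in replicate 1 and highest in replicate 2 (limma adjusted p = 0.026 between replicate numbers), and the guide groups overlapped. The other mitochondrially encoded subunits were not analysed here. Near-identical copies elsewhere in the genome exist for 13 members, up to 9 for Atp5l. Exon bases are shared with a gene on the opposite strand by 28 members, and with a gene on the same strand by 5. The counts of all these members may include reads of those genes or lose reads to them.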

How the data were processed

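PolyA RNA was sequenced with stranded TruSeq libraries, per the labels' protocols. The submitters' processing notes name build mm10 and, with no role or order, HTSeq 0.6.1, TopHat2 2.0.14, edgeR 3.22.3 and StringTie 1.2.4. The CPM values were scaled by the authors, per the file headers. Their table also holds a deposited log2 fold change, p-value and false discovery rate per gene. The 6 other per-sample columns were not used. Of 16427 entries, 2 without a gene were left out (ambiguous reads 0.543% to 1.58%, reads outside genes 8.06% to 8.94% of a library); they remain in the CPM divisor.

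Members and lists were chosen with earlier results of these data known. Named members are the 2 with the smallest guide p per complex, core subunits, isoform pairs, the highest and lowest level per complex, and the 5 with the smallest p between replicate numbers, with 2 genes per outside list; others were chosen after their values were seen. One named member is not reported here by itself. limma 3.58.1 with trend and robust estimation was run on log2(CPM + 0.5) of the 14440 genes that reached 0.5 CPM in 3 or more libraries, with Benjamini-Hochberg adjustment at 0.05, and was tested on simulated data. Without the block, p-values set the guide difference against the spread between the 3 replicates of a guide. In the blocked fit and the test between replicate numbers, that spread is what remains after guide and replicate number are fitted. Dividing CPM by the worth of 1 read gave whole reads for 100% of values within 0.01 reads. edgeR 4.0.16 on these reads called 0 genes between guides and 7013 between replicate numbers. Deviations from group means correlated across genes at 0.869, 0.739 and 0.817 for equal replicate numbers and at most at 0.203 otherwise, so equal numbers were taken as pairs and the blocked fit is given beside the other. Near-identical copies were found with BLAST 2.17.0 (95% identity over 50% of the principal transcript). Alternatives are described in the closing section.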

Additional observations from a re-analysis of the deposited data

How the results depend on the processing

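No member was called between guides in any of the 21 alternatives of the fit or at a threshold of 0.01; 942 estimates of 45 named members gave 0 calls, and 83 of them changed sign, so no direction is claimed for those members. With the replicate block the count of members stayed at 0, as did that of the pathway genes outside the rule, while the count over all genes went from 0 to 5, Pvt1 and Myc among them. The pathway genes gave 0 calls in the other settings too, except 1 in the fit with replicate block without replicate 2. The members' median log2 fold change of 0.001 moved to 0.010 with the block and without replicate 1, and ranged from −0.024 to 0.029 with 1 library left out. Leaving out 1 library gave −0.011 to 0.028 for complex I, −0.033 to 0.043 for complex II, −0.044 to 0.032 for complex III, −0.049 to 0.053 for complex IV and −0.028 to 0.074 for complex V, whose median was 0.007 with edgeR fold changes; the cause was not tested. Median centring with the block, the longest transcripts and the comparison of replicates 2 and 3 only were chosen after seeing the data. The 39 members called between replicate numbers became 17 at a threshold of 0.01, for which the share of all genes is not given here. The count was 7 without the variance trend (30% of all genes called) and 13 with replicates 2 and 3 only (21.2%). With 1 library left out it was 22 to 45 (36.2% to 55.8% of all genes). The interval of Ndufa4l2, −0.78 to 1.04, was −0.098 to 0.36 with the block, and that of Cox6b2, −0.92 to 0.99, was −0.16 to 0.22. At 8 to 17 reads per library, Cox4i2 did not pass the filter on low values.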
